A study of Mus musculus with 15 samples.

Results

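The genes described here encode the constitutive proteasome, measured in RAW264.7 cells cultured with or without RANKL. They were chosen by symbol: every gene on the array whose single annotated symbol starts with Psma, Psmb, Psmc, Psmd, Psmf or Psmg, without the immunoproteasome genes Psmb8, Psmb9 and Psmb10. The rule gave 39 of the 8251 genes on the array. Where a gene had several probe sets, as 7 did, the brightest on average (log2 scale, 15 arrays) stood for it. By role they comprise 7 genes of the alpha ring and 7 of the beta ring of the core particle, 17 genes of the regulatory cap (6 base ATPases, 3 other base subunits and 8 lid subunits), 7 assembly chaperones and regulators (Psmd5, Psmd9, Psmd10 and Psmg1 to Psmg4) and Psmc3ip. Psmc3ip entered through its symbol alone, since it encodes a meiotic recombination protein, and it was kept out of the cap. No symbol starting with Psmf was found among the single-gene annotations.

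The proteasome is the protease complex that degrades proteins tagged with chains of ubiquitin. Stacked rings of alpha and beta subunits form the hollow core, in which Psmb5, Psmb6 and Psmb7 carry the active sites. The cap binds the ubiquitin chain, removes it, and unfolds the protein with a ring of ATPases that threads it into the core. In macrophages, interferon-gamma signalling is known to replace the catalytic subunits with those of the immunoproteasome. In the osteoclast lineage the complex is known for degrading the inhibitor that holds NF-kB in the cytoplasm, a step that follows binding of RANKL to its receptor RANK, and inhibitors of the proteasome are known to reduce osteoclast formation.

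RAW264.7 is a mouse macrophage-like cell line that forms osteoclast-like cells under RANKL, the cytokine that drives osteoclast formation. Cells grown in alpha-MEM with serum received serum-free medium with RANKL, or the same without it, on day 0 and day 3. There was 1 array of RANKL cells at day 1 and a pair at each of days 2, 4 and 5. Control cells had 1 array at day 1, a pair at each of days 2, 3 and 4, and 1 at day 5. RANKL cells of day 3 were not analysed here. The labels call RANKL cells of days 4 and 5 multinuclear and the other cells mononuclear. All groups come from 1 cell line, and nothing in the labels says that replicate arrays came from different cultures. The spread behind each p-value may therefore be technical.

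Each of the 15 Affymetrix arrays gave linear signals, which the authors had scaled to a trimmed mean of 500. The median signal of an array was 103 to 149, and 50.4% to 56.2% of probe sets had a signal over 100. The macrophage marker Cd68 had signals of 8314 to 11234 on the 15 arrays. Over the 8 macrophage markers, the summed signal was 29860 to 55350 on late and 39750 to 58120 on early RANKL arrays. RANKL arrays of day 5 had the lowest sums, 37050 and 29860. For control arrays the sum was 51790 to 53720 late and 47100 to 54450 early. The osteoclast enzyme Acp5 had signals of 5066 to 12283 on RANKL arrays of days 2 to 5, against 43.5 to 992 on control arrays, and 535 on the RANKL array of day 1. Over the 6 osteoclast markers represented, of 9 listed, the summed signal was 16550 to 31170 on late and 5598 to 13530 on early RANKL arrays. On control arrays it was 1064 to 1543 late and 1184 to 6192 early. The part of this shift in the results on culture time was not tested. Over all 15 arrays the summed signal was 1066 to 1704 for 4 stromal and osteoblast markers, 147 to 383 for 4 T cell markers, 197 to 374 for 3 B cell markers, 123 to 261 for 4 neutrophil markers and 40.8 to 146 for 2 erythroid markers. RNA quality was read from the ratio of 3' over 5' beta-actin probe sets, which was 1.02 to 1.34 on late and 1.19 to 1.39 on early RANKL arrays, and 1.01 to 1.16 on late and 1.17 to 1.25 on early control arrays. The same ratio for Gapdh was 0.83 to 0.96 on late and 0.89 to 1.09 on early RANKL arrays. On control arrays the Gapdh ratio was 0.84 to 0.90 late and 0.92 to 1.01 early. In control cells neither ratio overlapped between the periods, so these ratios and culture time moved together there. Early means days 1 and 2, and late means days 4 and 5. All changes below are log2 differences of signal + 32 with the standard error from limma, and "passed" means an adjusted p below 0.05 over the 12422 probe sets tested.

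Stretches of 250 bases before the start site were available for 32 of the 39 genes (34 stretches, RefSeq, GRCm38.p6). Each was searched on both strands for TGACNNNGC, the core of the antioxidant response element bound by Nfe2l1 and Nfe2l2, for CCAAT, the box bound by NF-Y, and for the site of nuclear respiratory factor 1 (GCGC and TGCGC with any 1 base between them), a factor that is not the product of Nfe2l1. The stretches of 5 genes follow: Psmb3, Psma7 and Psmg1, which had the largest falls in RANKL cells, then Psmb5 and Psma2 as examples of the other 2 motifs. Capitals mark a motif match.

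Psmb3 (chr11:97703184-97703433, plus strand): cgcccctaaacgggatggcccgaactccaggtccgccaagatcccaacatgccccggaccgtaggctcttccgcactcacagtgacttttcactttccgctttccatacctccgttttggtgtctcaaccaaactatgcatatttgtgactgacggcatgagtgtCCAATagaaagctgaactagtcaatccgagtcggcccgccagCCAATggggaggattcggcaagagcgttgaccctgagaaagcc
Psma7 (chr2:180042465-180042714, minus strand): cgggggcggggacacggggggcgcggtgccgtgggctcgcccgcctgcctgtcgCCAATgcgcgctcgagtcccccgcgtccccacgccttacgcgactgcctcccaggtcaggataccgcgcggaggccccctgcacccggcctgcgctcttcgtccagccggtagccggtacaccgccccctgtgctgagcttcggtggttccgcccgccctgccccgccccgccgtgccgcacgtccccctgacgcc
Psmg1 (chr16:95990961-95991210, minus strand): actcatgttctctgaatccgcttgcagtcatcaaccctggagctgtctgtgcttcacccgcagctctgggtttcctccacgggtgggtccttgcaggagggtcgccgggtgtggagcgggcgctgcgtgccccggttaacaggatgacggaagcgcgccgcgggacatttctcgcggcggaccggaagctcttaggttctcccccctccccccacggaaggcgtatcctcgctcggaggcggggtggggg
Psmb5 (chr14:54617996-54618245, minus strand): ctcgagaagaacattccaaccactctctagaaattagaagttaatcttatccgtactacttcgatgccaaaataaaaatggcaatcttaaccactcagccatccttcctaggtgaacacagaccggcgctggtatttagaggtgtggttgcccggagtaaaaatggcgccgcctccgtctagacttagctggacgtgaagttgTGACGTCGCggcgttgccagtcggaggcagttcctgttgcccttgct
Psma2 (chr13:14612992-14613241, plus strand): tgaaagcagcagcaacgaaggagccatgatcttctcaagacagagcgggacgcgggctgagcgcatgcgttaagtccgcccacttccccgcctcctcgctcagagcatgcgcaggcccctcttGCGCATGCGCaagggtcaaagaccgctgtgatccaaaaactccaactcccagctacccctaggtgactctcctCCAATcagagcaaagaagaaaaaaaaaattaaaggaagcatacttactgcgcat

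TGACNNNGC was found in 5 of the 32 genes (15.6%), against 10.2% of all 32851 stretches of that length in the table. The 5 were Psmb5, Psmb6, Psmc6, Psmd9 and Psmd12. CCAAT was found in 12 genes (37.5%), against 33.8% of all stretches. The nuclear respiratory factor 1 site was found in 6 genes (18.8%), against 3.74% of all stretches. Those 6 were Psma2, Psma3, Psma4, Psmc4, Psmc5 and Psmd14. The shares above are of genes for the members and of stretches for the whole table. Of the 34 member stretches, 14.7% held TGACNNNGC, 35.3% CCAAT and 17.6% the nuclear respiratory factor 1 site. No match of one motif overlapped a match of another. A match describes the letters and says nothing of binding in these cells. The 5 genes shown differ in what they hold. Psma7 has CCAAT at base -196 from the start site and Psmb3 has it at -85 and at -43. Psmb5 has TGACGTCGC at -47, Psma2 has GCGCATGCGC at -127 and CCAAT at -54, and the stretch of Psmg1 holds none of the 3 motifs.

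Many proteasome genes had less RNA late than early in culture, with and without RANKL. In RANKL cells 19 of the 39 genes were lower late (5.82% of all probe sets were) and 0 were higher (8.98% of all probe sets were). In control cells 10 of the 39 were lower late (4.87% of all probe sets were) and 0 were higher (5.98% of all probe sets were). The median change of the 39 genes was -0.57 in RANKL cells and -0.46 in control cells, against 0.05 and -0.04 over all probe sets. A change below 0 was seen for 37 genes in RANKL cells and 35 in control cells, against 43.8% and 56.1% of all probe sets. In bulk RNA, fewer cells of a type and less RNA per cell cannot be told apart.

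Most of the 39 genes are bright on these arrays. In a fit of the brighter 50% of probe sets alone, which held 36 of the members, 25 members were lower in RANKL cells (14.2% of these probe sets were) and 15 in control cells (12% were). The beta-actin ratio moved with day, as given above, and with it as a covariate 9 members passed in RANKL cells and 0 in control cells. With that covariate the median change was -0.51 in RANKL cells and -0.42 in control cells, with 36 genes below 0 in each, and calls over all probe sets numbered 1086, against 1839 without it, in RANKL cells and 169, against 1348, in control cells. Leaving out single arrays gave 12 to 21 members in RANKL cells and 4 to 12 in control cells. The lowest count in RANKL cells was 12, reached without replicate 2 of day 2 and likewise without replicate 2 of day 4. In control cells they were 4 without control day 1 replicate 1, 4 without control day 4 replicate 2 and 5 without control day 2 replicate 1.

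**Figure D1:**
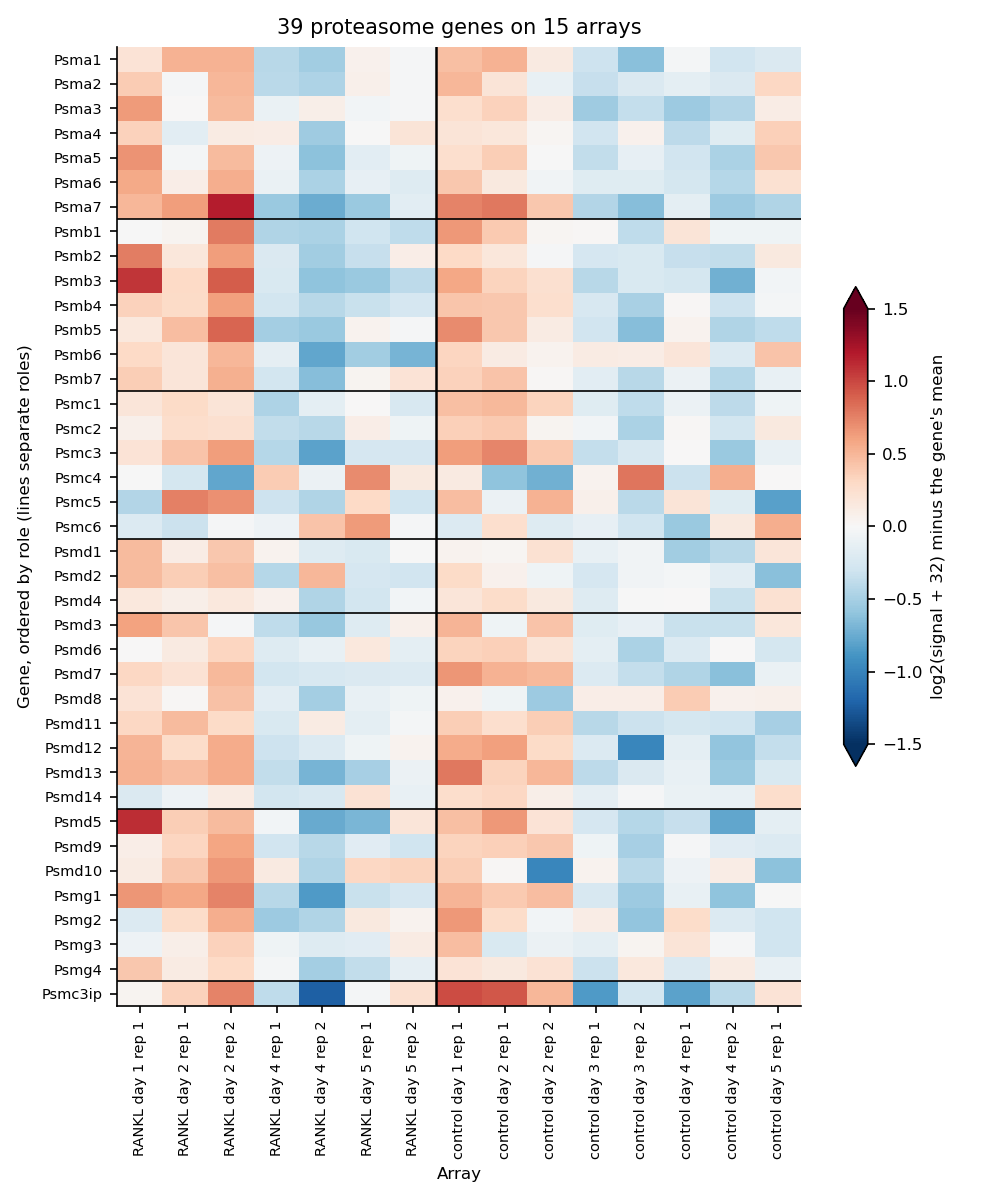
Level of each of the 39 genes (rows, ordered by role) on each of the 15 arrays (columns, RANKL arrays left of control arrays, days low to high), as log2(signal + 32) minus the gene's own mean over the arrays. Red is above that mean and blue below it, and most rows are red on arrays of days 1 and 2 and blue on arrays of days 3 to 5.

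Counted array by array, 26 to 35 of the 39 genes were below their own mean on late RANKL arrays, against 3 to 7 on early ones. On control arrays the counts were 23 to 33 late, against 1 to 11 early. The 2 control arrays of day 3 had 32 and 33 genes below their mean. For 23 of the 39 genes every late RANKL array was below every early one (8.24% of all probe sets behaved so). For 18 genes this held in control cells (13.4% of all probe sets), and for 15 genes in both (4.83% of all probe sets). Late arrays all above early arrays were seen for 0 members in RANKL cells (11.8% of all probe sets) and for 1 in control cells, Psmd8 (12.5% of all probe sets).

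Both cultures together had 7 genes that passed, where 2.87% of all probe sets were lower in both. They were Psma1, Psma7, Psmb5, Psmc3, Psmd7, Psmd13 and Psmg1, and they are 36.8% of the genes called in RANKL cells and 70% of those called in control cells. Another 12 genes passed in RANKL cells and not in control cells. By the probe sets used, 3 genes (Psmc1, Psmd11 and Psmd12) passed in control cells and not in RANKL cells. The difference between the cultures was tested as the late minus early RANKL effect, in which 0 of the 39 genes passed (0.0403% of all probe sets did). A gene that passed in one culture alone is therefore not shown to differ between them.

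**Figure D2:**
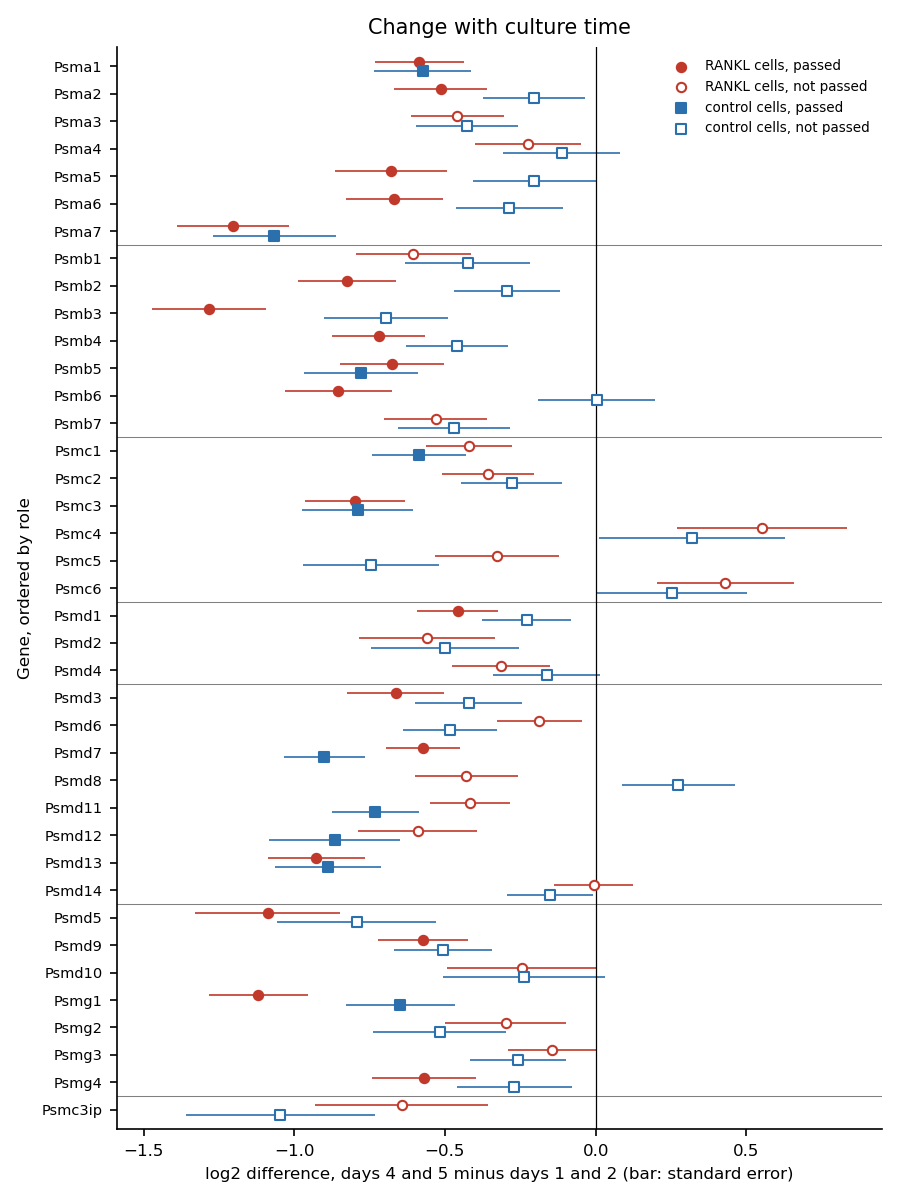
Change with culture time for each gene (rows, ordered by role), as the log2 difference of days 4 and 5 minus days 1 and 2 with its standard error, RANKL cells as circles and control cells as squares below them. Filled symbols passed the test, and nearly all symbols lie left of 0, the exceptions being Psmc4 and Psmc6 in both cultures and Psmb6 and Psmd8 in control cells.

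The alpha ring closes the ends of the core and holds the gate to its chamber. Of its 7 genes, 5 were lower late in RANKL cells and 2 in control cells (5.82% and 4.87% of all probe sets were). The median changes of the 7 genes were -0.59 and -0.29. Psma7 fell the most. In RANKL cells its signal was 4479 at day 1, 4916 and 7199 at day 2, 2142 and 1880 at day 4, and 2143 and 2833 at day 5. In control cells it was 5309 at day 1, 5502 and 4211 at day 2, 2321 and 2021 at day 3, 2853 and 2166 at day 4, and 2311 at day 5. Late and early arrays did not overlap in either culture, and RANKL and control arrays of the same period did overlap. The change was -1.20 ± 0.19 in RANKL cells (limma adjusted p = 0.00205), a 2.30-fold fall, and -1.07 ± 0.20 in control cells (limma adjusted p = 0.0078), a 2.10-fold fall.

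Psma1 also passed in both cultures, with changes of -0.58 ± 0.15 in RANKL cells and -0.57 ± 0.16 in control cells. Its signals on RANKL arrays were 994 at day 1, 1244 and 1252 at day 2, 637 and 589 at day 4, and 899 and 850 at day 5. On control arrays they were 1186 at day 1, 1252 and 951 at day 2, 687 and 546 at day 3, 844 and 702 at day 4, and 738 at day 5. Early and late arrays did not overlap in either culture, and the lowest array was one of day 4 under RANKL and one of day 3 without it.

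Psma2, Psma5 and Psma6 passed in RANKL cells alone, with changes of -0.51 ± 0.15, -0.68 ± 0.19 and -0.67 ± 0.16. In control cells the changes were -0.20 ± 0.17, -0.20 ± 0.20 and -0.29 ± 0.18, which did not pass. Psma5 signals on RANKL arrays were 7482 at day 1, 4566 and 6513 at day 2, 4421 and 3036 at day 4, and 4178 and 4456 at day 5, so the lowest early array stood just above the highest late one. On control arrays Psma5 had 5573 at day 1, 6045 and 4641 at day 2, 3614 and 4267 at day 3, 3823 and 3350 at day 4, and 6200 at day 5, where the day 5 array was the highest of the culture. Psma6 in control cells had 10158 at day 1, 8497 and 7362 at day 2, 6722 and 6771 at day 3, 6362 and 5679 at day 4, and 8977 at day 5, and the day 5 array lay among the early ones. On RANKL arrays Psma6 had 11414 at day 1, 8209 and 11155 at day 2, 7133 and 5520 at day 4, and 7047 and 6703 at day 5, with no overlap between late and early. Psma2 had 6821 at day 1, 5187 and 7425 at day 2, 3945 and 3794 at day 4, and 5501 and 5185 at day 5 under RANKL, and late and early arrays overlapped. Without RANKL it had 7393 at day 1, 5995 and 4826 at day 2, 4109 and 4486 at day 3, 4715 and 4492 at day 4, and 6491 at day 5, again with overlap. The call for Psma2 was the least stable, holding in 6 of 23 alternatives. Psma3 and Psma4 passed in neither culture, and their changes ranged between -0.46 and -0.11.

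The beta ring holds the active sites. Of its 7 genes, 5 were lower late in RANKL cells and 1, Psmb5, in control cells (5.82% and 4.87% of all probe sets were). The median changes of the 7 genes were -0.72 and -0.46. Psmb3, a structural subunit of the ring, had the largest change among the 39 genes in RANKL cells. Its signal there was 13384 at day 1, 7767 and 11911 at day 2, 5407 and 4167 at day 4, and 4291 and 4798 at day 5. In control cells it was 9477 at day 1, 8008 and 7471 at day 2, 4741 and 5413 at day 3, 5271 and 3845 at day 4, and 6175 at day 5. Late arrays were below early arrays in both cultures. The change was -1.28 ± 0.19 in RANKL cells (limma adjusted p = 0.00168), a 2.44-fold fall, and -0.70 ± 0.21 in control cells, which did not pass (limma adjusted p = 0.054).

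Psmb5, which carries the chymotrypsin-like site, passed in both cultures, with changes of -0.68 ± 0.17 in RANKL cells and -0.78 ± 0.19 in control cells. On RANKL arrays its signal was 4732 at day 1, 5848 and 7766 at day 2, 2961 and 2851 at day 4, and 4367 and 4181 at day 5. On control arrays it was 6908 at day 1, 5614 and 4584 at day 2, 3455 and 2704 at day 3, 4368 and 3071 at day 4, and 3223 at day 5. The probe sets of this gene disagreed: the other one gave 0.39 in RANKL cells and 0.40 in control cells, and neither value passed. That other probe set was dimmer, with a mean log2 level of 7.97 against 12.05 for the probe set used. The probe set used for Psmb5 is of a kind that can detect related transcripts, as are those of Psma3, Psmb4, Psmb7, Psmc3 and Psmd12.

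Psmb6, which carries the caspase-like site, differed most between the cultures in size. Its signal on RANKL arrays was 4565 at day 1, 4206 and 5255 at day 2, 3372 and 2147 at day 4, and 2571 and 2263 at day 5. On control arrays it was 4641 at day 1, 4036 and 3846 at day 2, 4039 and 4004 at day 3, 4204 and 3204 at day 4, and 5008 at day 5. Late arrays were below early arrays under RANKL, while control arrays of both periods overlapped. The change was -0.85 ± 0.18 in RANKL cells (limma adjusted p = 0.00838) and 0.00 ± 0.19 in control cells. The difference between those changes was -0.86 and did not pass (limma adjusted p = 0.485).

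Psmb2 and Psmb4, both structural, passed in RANKL cells alone. Psmb2 signals there were 4581 at day 1, 3022 and 4177 at day 2, 2306 and 1862 at day 4, and 2117 and 2879 at day 5, with a change of -0.83 ± 0.16. In control cells Psmb2 had 3322 at day 1, 3031 and 2662 at day 2, 2251 and 2299 at day 3, 2116 and 2076 at day 4, and 2979 at day 5, with a change of -0.29 ± 0.18. The day 5 control array lay among the early ones, so the periods overlapped without RANKL and not with it. Psmb4 had 8825 at day 1, 8446 and 10571 at day 2, 5726 and 5165 at day 4, and 5469 and 5788 at day 5 under RANKL, against 9249 at day 1, 9198 and 8229 at day 2, 5851 and 4907 at day 3, 7016 and 5556 at day 4, and 6793 at day 5 without it. Its late arrays were below its early ones in both cultures, and its changes were -0.72 ± 0.15 and -0.46 ± 0.17. The other probe sets of Psmb4 gave 0.07 and -0.04 in RANKL cells, which did not pass. Both were dim, with mean log2 levels of 6.76 and 5.16 against 12.76 for the probe set used, and little can be read from them. Psmb1, a structural subunit, and Psmb7, which carries the trypsin-like site, had changes of -0.61 and -0.53 in RANKL cells and -0.43 and -0.47 in control cells, and passed in neither. A second probe set of Psmb1, about as bright, gave -0.30 in RANKL cells and 0.095 in control cells, and neither value passed.

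**Figure D3:**
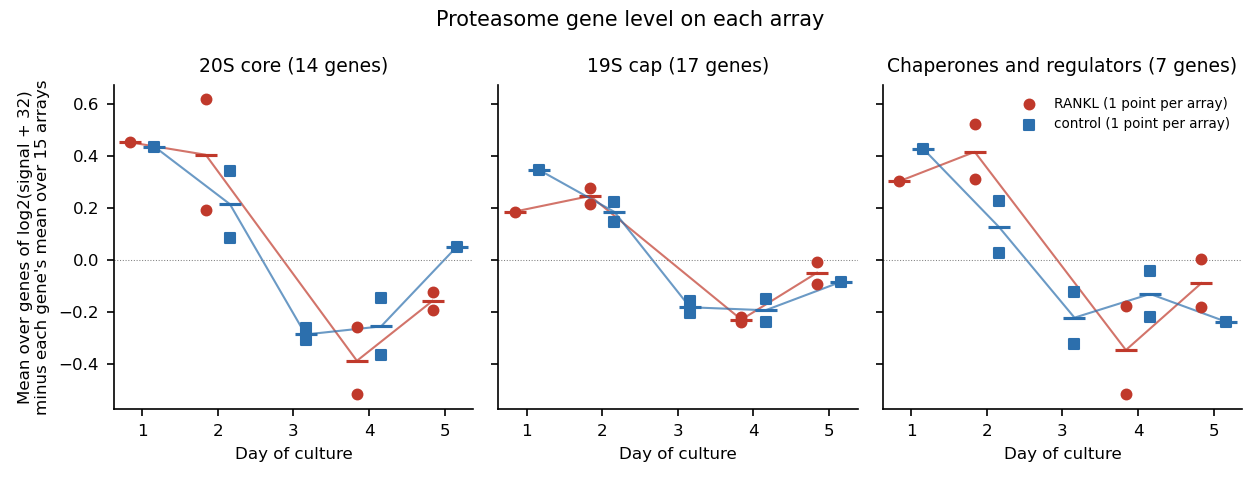
Mean level of the core, the cap and the assembly chaperones on each array against day of culture, as the mean over genes of log2(signal + 32) minus each gene's own mean, with RANKL arrays as circles and control arrays as squares, and with lines through the group means. All 3 groups of genes were high on days 1 and 2 and low at day 4, where the core averaged -0.39 in RANKL cells and -0.26 in control cells.

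Set side by side, 10 of 14 core genes and 5 of 17 cap genes were lower late in RANKL cells (5.82% of all probe sets were). The median changes were -0.67 and -0.42. In control cells 3 of 14 core genes and 6 of 17 cap genes were lower (4.87% of all probe sets were), with medians of -0.43 and -0.48. Over the alternatives the core median ran from -0.783 to -0.496 and the cap median from -0.448 to -0.369 in RANKL cells. In control cells they ran from -0.545 to -0.307 and from -0.523 to -0.359. The mean level of the core genes was -0.39 at day 4 in RANKL cells and -0.26 in control cells, relative to each gene's own mean. That of the cap genes was -0.23 and -0.19. The cap values include the dim probe sets of Psmc4 and Psmd2, with signals of at most 77.2 and 65.0. Core and cap were not tested against each other.

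The base of the cap holds 6 ATPases. One of them, Psmc3, was lower late in RANKL cells and 2, Psmc1 and Psmc3, in control cells (5.82% and 4.87% of all probe sets were). Psmc3 signals were 1848 at day 1, 2176 and 2494 at day 2, 1181 and 907 at day 4, and 1338 and 1347 at day 5 under RANKL. Without RANKL they were 2503 at day 1, 2683 and 2111 at day 2, 1249 and 1349 at day 3, 1604 and 1080 at day 4, and 1483 at day 5. Late arrays were all below early arrays in both cultures. The changes were -0.80 ± 0.17 in RANKL cells and -0.79 ± 0.18 in control cells, and both other probe sets of Psmc3 had changes below 0 in both cultures.

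Psmc1 had 1450 at day 1, 1563 and 1458 at day 2, 918 and 1150 at day 4, and 1276 and 1077 at day 5 under RANKL, against 1756 at day 1, 1804 and 1611 at day 2, 1117 and 966 at day 3, 1198 and 965 at day 4, and 1215 at day 5 without it. Its change was -0.42 ± 0.14 in RANKL cells, which did not pass, and -0.58 ± 0.16 in control cells, which did. Late arrays were below early ones in both cultures. Psmc6 was the one bright ATPase gene with a change above 0, at 0.43 ± 0.23 in RANKL cells and 0.25 ± 0.25 in control cells, and neither passed. Its signals were 1981 to 4560 over the 15 arrays. The probe set of Psmc4 was dim, at 4.56 to 77.2, and little can be read from it. Psmc2 had -0.36 in RANKL cells and -0.28 in control cells, and Psmc5 had -0.33 and -0.74, of which none passed.

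The other 3 base genes are the scaffold subunits Psmd1 and Psmd2 and the ubiquitin receptor Psmd4. Psmd1 was lower late in RANKL cells, with a change of -0.46 ± 0.13, and had -0.23 ± 0.15 in control cells. Its signals under RANKL were 3289 at day 1, 2554 and 3130 at day 2, 2457 and 2065 at day 4, and 2009 and 2347 at day 5. Without RANKL they were 2444 at day 1, 2408 and 2771 at day 2, 2181 and 2274 at day 3, 1638 and 1764 at day 4, and 2690 at day 5. Late and early arrays overlapped in control cells only through the day 5 array, and the call in RANKL cells held in 9 of 23 alternatives. Psmd4 had changes of -0.31 in RANKL cells and -0.16 in control cells. Psmd2 was dim, with signals of 12.7 to 65.0.

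The lid removes the ubiquitin chain. Of its 8 genes, 3 were lower late in RANKL cells (Psmd3, Psmd7 and Psmd13) and 4 in control cells (Psmd7, Psmd11, Psmd12 and Psmd13). Of all probe sets, 5.82% and 4.87% were lower, and the median changes of the 8 genes were -0.50 and -0.61. Psmd13 had the largest fall of the lid in RANKL cells. Its signals were 2459 at day 1, 2366 and 2540 at day 2, 1313 and 1044 at day 4, and 1202 and 1604 at day 5 there. In control cells they were 2984 at day 1, 2156 and 2438 at day 2, 1300 and 1470 at day 3, 1581 and 1152 at day 4, and 1450 at day 5. Early arrays lay above all arrays of later days in both cultures. The change was -0.93 ± 0.16 in RANKL cells (limma adjusted p = 0.00365) and -0.89 ± 0.18 in control cells (limma adjusted p = 0.0092).

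Psmd7, the partner of the deubiquitinase Psmd14, had the smallest adjusted p of the 39 genes in control cells, 0.00265 by limma, with a change of -0.90 ± 0.13. In RANKL cells its change was -0.57 ± 0.12. Its signals were 3701 at day 1, 3466 and 4179 at day 2, 2436 and 2509 at day 4, and 2548 and 2561 at day 5 under RANKL, against 4699 at day 1, 4266 and 4178 at day 2, 2565 and 2314 at day 3, 2158 and 1917 at day 4, and 2761 at day 5 without it. Replicates of Psmd7 lay close together and the periods did not overlap in either culture. Psmd14 itself had -0.01 ± 0.13 in RANKL cells and -0.15 ± 0.14 in control cells.

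With the probe sets used, Psmd11 and Psmd12 passed in control cells alone. Psmd11, which helps hold the cap to the core, had 4713 at day 1, 5286 and 4653 at day 2, 3236 and 4149 at day 4, and 3425 and 3710 at day 5 under RANKL. Without RANKL it had 4922 at day 1, 4529 and 4926 at day 2, 2845 and 3018 at day 3, 3163 and 3079 at day 4, and 2680 at day 5. Every late control array was below every late RANKL array, while early arrays overlapped. The change was -0.42 ± 0.13 in RANKL cells and -0.73 ± 0.15 in control cells, and the difference between them, 0.32, did not pass (limma adjusted p = 0.714). Another probe set of Psmd11 passed in both cultures, with -0.53 in RANKL cells (limma adjusted p = 0.0495) and -0.72 in control cells (limma adjusted p = 0.026). A further, dimmer probe set gave 0.04 and -0.20 and passed in neither.

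Psmd12 had changes of -0.59 ± 0.20 in RANKL cells and -0.87 ± 0.22 in control cells. Its signals were 1746 at day 1, 1478 and 1810 at day 2, 979 and 1051 at day 4, and 1167 and 1268 at day 5 under RANKL, against 1814 at day 1, 1880 and 1491 at day 2, 1051 and 601 at day 3, 1098 and 801 at day 4, and 945 at day 5 without it. The periods did not overlap in either culture, and the lowest array was a control array of day 3. Psmd3 passed in RANKL cells with -0.66 ± 0.16 and had -0.42 ± 0.18 in control cells. It had 3609 at day 1, 3153 and 2325 at day 2, 1813 and 1587 at day 4, and 2066 and 2485 at day 5 under RANKL, against 3363 at day 1, 2260 and 3179 at day 2, 2076 and 2172 at day 3, 1872 and 1871 at day 4, and 2667 at day 5 without it. Late and early arrays of Psmd3 overlapped in both cultures. Psmd6 had -0.19 in RANKL cells and -0.48 in control cells, and neither passed.

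Psmd8, a lid subunit that joins late in lid assembly, had changes of opposite sign in the cultures. On RANKL arrays its signal was 3213 at day 1, 2811 and 3764 at day 2, 2476 and 1942 at day 4, and 2567 and 2658 at day 5. On control arrays it was 2895 at day 1, 2659 and 1886 at day 2, 2980 and 2984 at day 3, 3635 and 2915 at day 4, and 2929 at day 5. All late RANKL arrays were below all early ones, and all late control arrays were above all early ones. The changes were -0.43 ± 0.17 in RANKL cells and 0.28 ± 0.19 in control cells, and neither passed. The difference between them, -0.70, did not pass either (limma adjusted p = 0.571).

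Assembly of the complex needs dedicated chaperones. Psmg1 to Psmg4 guide the alpha ring, and Psmd5, Psmd9 and Psmd10 guide the ATPase ring and then leave. Of these 7 genes, 4 were lower late in RANKL cells (Psmd5, Psmd9, Psmg1 and Psmg4) and 1, Psmg1, in control cells. Of all probe sets, 5.82% and 4.87% were lower, and the median changes of the 7 genes were -0.57 and -0.51. Psmg1, which pairs with Psmg2, had 1915 at day 1, 1810 and 2035 at day 2, 893 and 655 at day 4, and 946 and 1007 at day 5 under RANKL. Without RANKL it had 1730 at day 1, 1585 and 1666 at day 2, 1011 and 813 at day 3, 1113 and 781 at day 4, and 1201 at day 5. A clear gap separated early from late arrays in each culture. The change was -1.12 ± 0.16 in RANKL cells (limma adjusted p = 0.00163, the smallest of the 39 genes) and -0.65 ± 0.18 in control cells (limma adjusted p = 0.0399).

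Psmd5 fell by 1.09 in RANKL cells (SE 0.24) and had -0.79 ± 0.26 in control cells. Its signals under RANKL were 3945 at day 1, 2358 and 2529 at day 2, 1758 and 1059 at day 4, and 1119 and 2070 at day 5. Without RANKL they were 2500 at day 1, 2863 and 2093 at day 2, 1520 and 1342 at day 3, 1425 and 1042 at day 4, and 1640 at day 5. The periods did not overlap in either culture, though replicates of Psmd5 lay far apart on late RANKL days. Psmd9 had 752 at day 1, 885 and 1075 at day 2, 569 and 516 at day 4, and 617 and 564 at day 5 under RANKL, against 892 at day 1, 909 and 939 at day 2, 669 and 486 at day 3, 694 and 620 at day 4, and 605 at day 5 without it. Its changes were close in both cultures, -0.57 ± 0.15 and -0.51 ± 0.16, and the first passed. Psmg4 had 1413 at day 1, 1157 and 1300 at day 2, 1034 and 732 at day 4, and 813 and 960 at day 5 under RANKL, against 1222 at day 1, 1171 and 1228 at day 2, 838 and 1186 at day 3, 906 and 1149 at day 4, and 977 at day 5 without it. Its change was -0.57 ± 0.17 in RANKL cells, a call that held in 9 of 23 alternatives, and -0.27 ± 0.19 in control cells. Psmd10, Psmg2 and Psmg3 had changes between -0.52 and -0.15 and passed in neither culture.

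Psmc3ip, the recombination gene, had changes of -0.64 ± 0.29 in RANKL cells and -1.05 ± 0.31 in control cells, and neither passed. Its signals were low, at 20.3 to 208.

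The fall was dated by comparing adjacent days, which were chosen after the values had been seen. In RANKL cells 18 of the 39 genes were lower at day 4 than at day 2 (5.45% of all probe sets were), with a median change of -0.67. All 7 beta ring genes were among them, with changes of -1.20 to -0.77. The other probe sets of Psmb1, Psmb4 and Psmb5 gave -0.19 to 0.22 and did not pass. Among these, the Psmb1 probe set about as bright as the one used gave -0.19, and the rest were dimmer than those used. Without RANKL day 2 replicate 2 the count was 3, and without RANKL day 4 replicate 2 it was 5. Between day 4 and day 5 in RANKL cells, 0 genes passed by limma in either direction (0.636% of all probe sets did), with 6 at an unadjusted p below 0.05 (11.7% of all probe sets were). The day 5 minus day 4 change was above 0 for 33 genes, with a median of 0.24, where 43.3% of all probe sets had a change below 0.

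In control cells, where day 3 was measured, 8 genes were lower at day 3 than at day 2 (2.99% of all probe sets were), with a median change of -0.43. They were Psma1, Psma7, Psmc1, Psmc3, Psmd7, Psmd11, Psmd12 and Psmg1. Without control day 2 replicate 1, or without control day 3 replicate 2, the count was 0. It was 2 without control day 2 replicate 2 and 2 without control day 3 replicate 1. From day 3 to day 4 in control cells 0 genes passed by limma (0% of all probe sets did), with 1 at an unadjusted p below 0.05 (4.62% of all probe sets were) and a median of 0.03. From day 4 to day 5 again 0 passed (0.0403% of all probe sets did), with 7 at an unadjusted p below 0.05 (11.9% of all probe sets were) and a median of 0.17. Averaged over the 39 genes, the level relative to each gene's own mean was 0.30, 0.34, -0.32 and -0.09 at days 1, 2, 4 and 5 in RANKL cells, and 0.41, 0.20, -0.24, -0.21 and -0.06 at days 1 to 5 in control cells. The SD of this average between replicate arrays was 0.108.

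**Figure D4:**
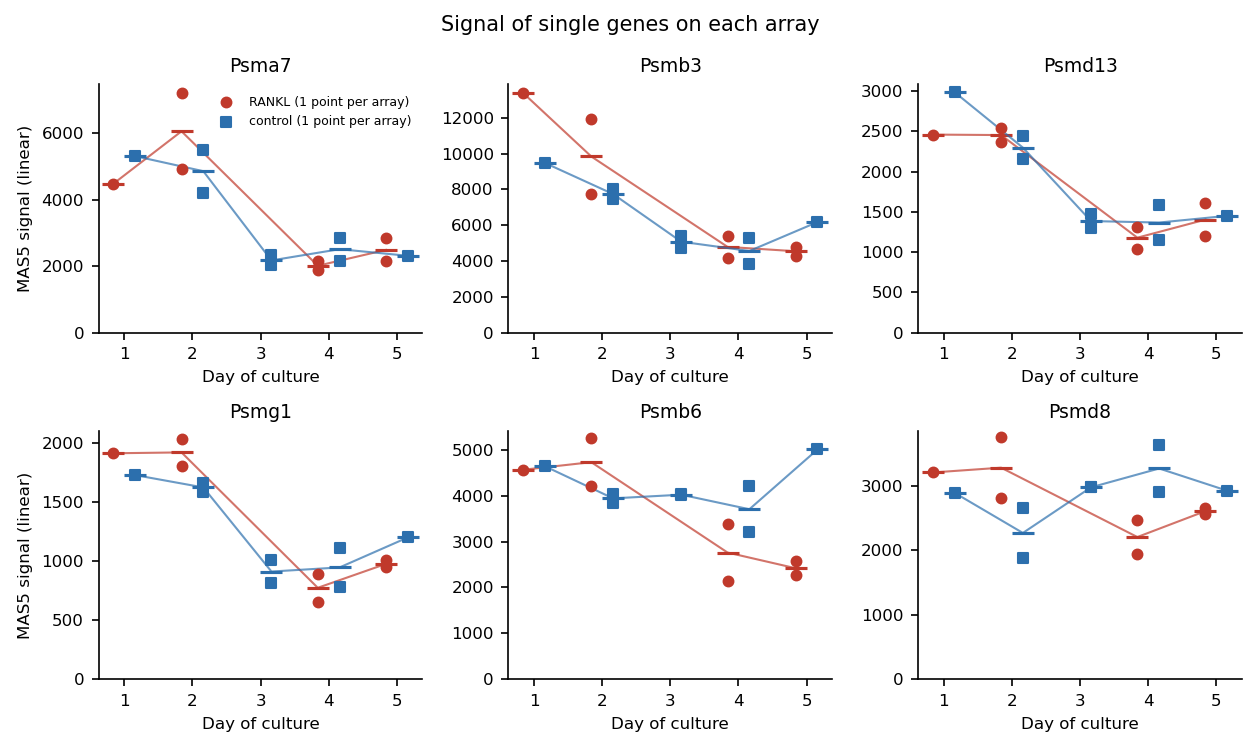
Signal of 6 genes on each array (linear scale from 0) against day of culture, with RANKL arrays as circles, control arrays as squares, bars at the group means and lines through them. Psma7, Psmb3, Psmd13 and Psmg1 were lower on late than on early arrays in both cultures, Psmb6 was lower late under RANKL alone with overlapping control arrays, and Psmd8 was lower on late arrays under RANKL and higher on late control arrays.

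RANKL itself was set against control cells of the same day. No proteasome gene passed in any of these comparisons by limma. Averaged over days 1, 2, 4 and 5, 0 of 39 genes passed (1.09% of all probe sets did), with 3 at an unadjusted p below 0.05 (11.1% of all probe sets were), and the median difference was -0.04. The 95% intervals of the 39 genes lay between -0.81 and 0.79. The count was also 0 in the 24 alternatives of this comparison.

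The largest differences over the 4 days were -0.35 ± 0.21 for Psmc3ip and -0.31 for both Psmb1 and Psmb6 on the lower side, and 0.38 ± 0.18 for Psmd10 and 0.27 ± 0.17 for the dim Psmd2 on the higher side. Psmd10, also known as gankyrin, had 498 at day 1, 612 and 733 at day 2, 501 and 324 at day 4, and 570 and 580 at day 5 in RANKL cells. In control cells it had 593 at day 1, 458 and 214 at day 2, 472 and 335 at day 3, 429 and 492 at day 4, and 286 at day 5. RANKL arrays of Psmd10 were above control arrays at days 2 and 5 and not at days 1 and 4. Psmb1 had 2539 at day 1, 2627 and 4387 at day 2, 1852 and 1827 at day 4, and 2057 and 1952 at day 5 in RANKL cells, against 4011 at day 1, 3336 and 2600 at day 2, 2574 and 1947 at day 3, 2926 and 2432 at day 4, and 2440 at day 5 in control cells. With this probe set it was lower in RANKL cells at days 1, 4 and 5, while the day 2 arrays of the cultures overlapped. Another probe set of Psmb1, about as bright, gave -0.01 ± 0.10 over the 4 days, with 0.36 at day 1, 0.11 at day 4 and -0.53 at day 5, so the probe sets of this gene disagreed. Psmd14 had the smallest adjusted p in this comparison, 0.334 by limma, with a difference of -0.25 ± 0.10.

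At day 1, with 1 array against 1, 0 genes passed by limma (0% of all probe sets did), with 2 at an unadjusted p below 0.05 (5.86% of all probe sets were). The extremes there were Psmc3ip at -0.93, the ATPase Psmc5 at -0.90, Psmb3 at 0.50 and Psmd5 at 0.65. Psmc5 had 899 on the RANKL array and 1710 on the control array of day 1. Its later signals were 2094 and 2000 at day 2, 988 and 894 at day 4, and 1521 and 997 at day 5 in RANKL cells, against 1154 and 1786 at day 2, 1295 and 926 at day 3, 1412 and 1080 at day 4, and 687 at day 5 in control cells. The sign of its difference thus changed from day to day, with 0.50 at day 2, -0.38 at day 4 and 0.82 at day 5.

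At day 2, 0 genes passed by limma (0.853% of all probe sets did), with 2 at an unadjusted p below 0.05 (10.1% of all probe sets were) and a median difference of 0.12. Psmd10 at 1.01 ± 0.31 (limma adjusted p = 0.235) and Psmd8 at 0.53 ± 0.21 were the highest, and Psmc6 at -0.20 and Psmc1 at -0.17 the lowest. The difference was above 0 for 13 of 14 core genes, with a median of 0.20, and for 9 of 17 cap genes, with a median of 0.01, where 48.8% of all probe sets were below 0. The core median ran from -0.02 to 0.44 over the 22 alternatives of this comparison.

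At day 4, 0 genes passed by limma (0.266% of all probe sets did), with 4 at an unadjusted p below 0.05 (8.13% of all probe sets were) and a median of -0.17. Psmd8 at -0.56 ± 0.21 and the alpha ring chaperone Psmg2 at -0.53 ± 0.25 were lowest, and Psma3 at 0.49 ± 0.20 and Psmd1 at 0.40 ± 0.17 highest. Psma3 had 6315 and 7199 on RANKL arrays and 4637 and 4982 on control arrays of that day. Psmg2 had 353 and 378 on RANKL arrays and 644 and 454 on control arrays. Neither pair overlapped at day 4, but both genes were named as extremes of this comparison. The share of all probe sets whose arrays separate so at day 4 was not counted.

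At day 5, 0 genes passed by limma (0.918% of all probe sets did), with 3 at an unadjusted p below 0.05 (14.2% of all probe sets were) and a median of -0.14. Psmb6 was the lowest at -1.04 ± 0.28, with 2571 and 2263 in RANKL cells and 5008 on the single control array, and had the smallest adjusted p of any RANKL difference among the 39 genes, 0.102 by limma. Psma5 had -0.52 ± 0.29, and the highest were Psmd10 at 0.93 ± 0.38 and Psmc5 at 0.82 ± 0.32. Comparisons at single days use some of the same arrays as the average over days, so their values are not independent of it.

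**Figure D5:**
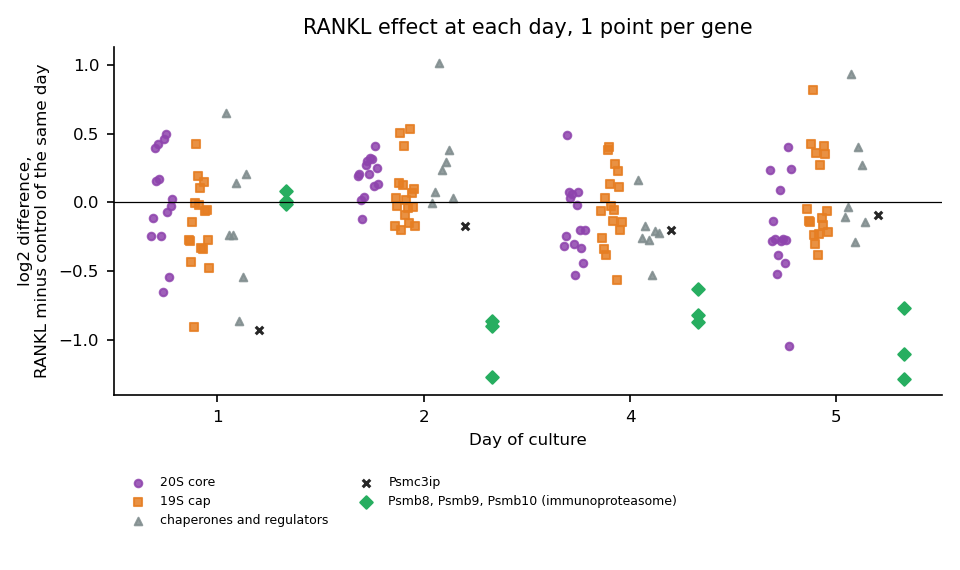
Log2 difference of RANKL minus control cells of the same day for each gene (1 point per gene) at days 1, 2, 4 and 5, with core, cap and chaperone genes, Psmc3ip and the 3 immunoproteasome genes apart. Proteasome genes lie on both sides of 0 on each day and none passed. The immunoproteasome genes lie near 0 at day 1 and between -1.29 and -0.63 on later days, and none of them passed at a single day either.

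The late minus early RANKL effect had its lowest values at Psmb6 (-0.86 ± 0.26) and Psmd8 (-0.70 ± 0.25), and its highest at Psmc5 (0.42 ± 0.30) and Psmc3ip (0.40 ± 0.43). With 3 genes at an unadjusted p below 0.05 (8.03% of all probe sets were), its smallest limma adjusted p was 0.485. It was below 0 for 13 of 14 core genes, with a median of -0.22, and for 8 of 17 cap genes, with a median of 0.14. Below 0 were 40.1% of all probe sets. Over the 23 alternatives of this comparison the core median ran from -0.391 to -0.105. The cap median ran from -0.081 to 0.224, so its sign was not stable. Set against control arrays of the same days, RANKL arrays of days 2, 4 and 5 stood apart for few probe sets: 0 members were apart on the lower side (0.564% of all probe sets were) and 0 on the higher side (0.789% were).

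The immunoproteasome genes are the inducible counterparts of the catalytic subunits, Psmb8 for Psmb5, Psmb9 for Psmb6 and Psmb10 for Psmb7. Psmb8 had 2923 at day 1, 1477 and 1775 at day 2, 2048 and 974 at day 4, and 1245 and 1377 at day 5 in RANKL cells. In control cells it had 2454 to 3148 over the 8 arrays, all above the RANKL arrays of days 2 to 5. Its RANKL difference over the 4 days was -0.70 ± 0.16 and did not pass (limma adjusted p = 0.0661). Psmb9 had -0.84 ± 0.26 and Psmb10 had -0.57 ± 0.14, with limma adjusted p of 0.19 and 0.0953. With culture time Psmb10 was lower late in RANKL cells, at -0.83 ± 0.19, and had -0.57 ± 0.21 in control cells.

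Among 49 other genes of the ubiquitin and proteasome pathway, listed from textbook membership, 34 were represented. None of the 4 genes that encode ubiquitin itself was. In RANKL cells 8 of the 34 were higher late (8.98% of all probe sets were) and 3 were lower (5.82% of all probe sets were). In control cells 4 were higher (5.98% of all probe sets were) and 3 were lower (4.87% of all probe sets were). For RANKL against control over the 4 days 0 of the 34 passed by limma (1.09% of all probe sets did), with 7 at an unadjusted p below 0.05 (11.1% of all probe sets were).

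Nfe2l1, a transcription factor known to raise proteasome genes when proteasome activity is low, was higher late in both cultures. It had 954 at day 1, 835 and 648 at day 2, 2856 and 1824 at day 4, and 2959 and 1084 at day 5 in RANKL cells. In control cells it had 1094 at day 1, 1011 and 1149 at day 2, 2482 and 2829 at day 3, 2294 and 1907 at day 4, and 3651 at day 5. Late arrays were all above early ones in each culture. The change was 1.24 ± 0.29 in RANKL cells and 1.32 ± 0.32 in control cells. Its relative Nfe2l2 had 0.50 ± 0.17 in RANKL cells, which did not pass, and rose by 0.77 ± 0.18 in control cells. The call for Nfe2l1 held in 21 of 23 alternatives in RANKL cells and in 19 of 24 in control cells. That for Nfe2l2 in control cells held in 18 of 24.

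Vcp, the ATPase that extracts ubiquitin-tagged proteins and delivers them to the proteasome, was lower late in both cultures, at -1.10 ± 0.19 in RANKL cells and -1.13 ± 0.20 in control cells. Its signals were 6187 at day 1, 3265 and 5156 at day 2, 2888 and 2361 at day 4, and 1797 and 2396 at day 5 in RANKL cells, against 5335 at day 1, 4672 and 3537 at day 2, 2360 and 2321 at day 3, 2581 and 2337 at day 4, and 1800 at day 5 in control cells. The periods did not overlap in either. Of 3 activators represented, Psme4, an alternative cap, rose by 0.77 ± 0.19 in RANKL cells and had 0.36 ± 0.21 in control cells. Among the activating and shuttle genes, Uba3, a subunit of the NEDD8-activating enzyme, rose by 1.27 ± 0.30 and the shuttle factor Ubqln1 by 0.87 ± 0.16 in RANKL cells.

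Conjugating enzymes moved in both directions. Of 16 represented, 4 were higher late in RANKL cells (Ube2d2a 1.04, Ube2b 0.93, Ube2a 0.81 and Ube2g1 0.51) and 1 was lower (Ube2s -1.19). In control cells Ube2h (1.30) and Ube2b (1.08) were higher and Ube2s (-1.39) and Ube2n (-0.76) were lower. Over all probe sets, 8.98% were higher and 5.82% lower late in RANKL cells, and 5.98% and 4.87% in control cells. The calls in RANKL cells held in 9 of 23 alternatives for Ube2g1 and in 16 for Ube2a. That for Ube2h in control cells held in 15 of 24. Each of the other calls named here was lost in at most 1 alternative. Ube2s is known as a partner of the anaphase-promoting complex in mitosis. The deubiquitinases of the cap, Usp14 and Uchl5, passed in neither culture, with -0.11 and -0.39 in RANKL cells and -0.73 and -0.40 in control cells. The chaperone of core assembly, Pomp, had -0.09 in RANKL cells and -0.40 in control cells and did not pass.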

How the data were processed

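The 15 arrays of RAW264.7 RNA form 9 groups of treatment and day, 3 of which have 1 array. The authors made the deposited signal intensity values with MAS5, per the submitters' processing notes (version not given in the sources used here), and scaled every array to the same trimmed mean (2% off each end). The table holds 12488 probe sets, of which 66 control probe sets were left out, except as a measure of RNA quality. Names come from the platform annotation: 10833 probe sets have 1 gene, 396 several and 1193 none.

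Values were taken as log2(signal + 32) with no further normalization or filter. limma 3.58.1 in R 4.3.3 (lmFit, eBayes with an intensity trend) fitted 1 mean per group to all arrays, with 6 residual and 5.39 prior degrees of freedom. A lone array is taken to vary as the replicated groups do. All tests are two-sided, with Benjamini-Hochberg adjustment within each of 8 comparisons and a threshold of 0.05. The fit was tested on simulated data. The number of arrays limits the precision.

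Genes described in full are those past the threshold in any of the 8 comparisons and, in each, the 2 highest and the 2 lowest. Members and lists were chosen with earlier results of these data known. Alternatives tried were quantile normalization, pseudocounts of 1 and 100, a fit without the trend, the brighter 50% of probe sets, the replicate number as a block, the beta-actin ratio as a covariate, each array left out in turn, other days for early and late, and other probe sets. Comparisons of adjacent days were added after the data had been seen. Promoters come from RefSeq (GRCm38.p6).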

Additional observations from a re-analysis of the deposited data

Results flagged for a closer look

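Psmd8, a lid gene of the cap, had changes with time of opposite sign in the 2 cultures, and neither change passed. It was picked from the 39 genes because its late arrays lay on opposite sides. The share of all probe sets that behave so was not counted. All 4 late RANKL arrays were below the mean of the early ones, by -0.73 to -0.28 on the log2 scale, and all 3 late control arrays were above theirs, by 0.25 to 0.57. The difference between the changes, the late minus early RANKL effect, was -0.70 ± 0.25 and did not pass (limma adjusted p = 0.571).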

How the results depend on the processing

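No proteasome gene passed for RANKL against control under any alternative run, so those counts stayed at 0. With culture time, the count of genes lower late was 19 in RANKL cells and 10 in control cells. With the beta-actin ratio as a covariate it was 9 in RANKL cells, 0 in control cells and 0 for control day 3 minus day 2, while calls over all probe sets fell to 1086, 169 and 152, against 1839, 1348 and 880 as reported. The median changes with that covariate were -0.51, -0.42 and -0.48, with 36, 36 and 33 of the 39 genes below 0. In control cells it was 4 with day 2 alone as early and 18 with days 3, 4 and 5 as late. For control day 3 minus day 2, against 8 as reported, it was 14 in the upper 50% of probe sets and 3 with no intensity trend. Leaving out 1 array gave 12 to 21 in RANKL cells, 4 to 12 in control cells, 3 to 18 for RANKL day 4 minus day 2 and 0 to 9 for control day 3 minus day 2. The other alternatives kept each count within 1.5 times. Signs turned with another probe set of Psmb4 (0.066 in RANKL cells) and of Psmb5 (0.39 in RANKL and 0.40 in control cells). They also turned with another probe set of Psmb1 (0.22 for RANKL day 4 minus day 2) and of Psmd11 (0.26 for control day 3 minus day 2). None of these values passed, and each of these probe sets was dimmer than the probe set used for its gene. With the replicate block, 17 genes passed in RANKL cells and 10 in control cells. No sign was seen that the replicate numbers pair the arrays, though the labels do not say. Over 15 pairs of groups the correlation of replicate differences was -0.17 to 0.12, and the block changed no count by over 1.5 times. Psma7, Psmb2, Psmb3, Psmb6, Psmc3, Psmd13 and Psmg1 passed in all 23 alternatives in RANKL cells, while Psma2 was lost in 17 of them and Psmd1 and Psmg4 in 14. In control cells Psma7, Psmd7 and Psmd11 were lost in 1 of 24, the beta-actin covariate, and Psmg1 in 11. These tallies leave out other probe sets of a gene: with those, a call was lost for Psmb4, Psmb5 and Psmc3 (-0.72, limma adjusted p = 0.0576) in RANKL cells and for Psmb5 and Psmd11 in control cells. A call was gained for Psmd11 in RANKL cells (-0.53, limma adjusted p = 0.0495). Dim probe sets (Psmc4, Psmd2 and the other probe sets of Psmb4) carry little information.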
